A study of Mus musculus with 9 samples.

Results

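Type IV collagen is the main structural protein of the lens capsule, the thick basement membrane that surrounds the lens. The genes described here are the 6 that encode its chains, *Col4a1* to *Col4a6*, with 3 genes for proteins that act beside it: *Hspg2*, *Sparc* and *Pxdn*. They were chosen by symbol, and all 9 were found among the 55416 genes counted, of which 54749 have a symbol. The study sequenced lens RNA from mouse embryos at E16.5 to learn what the transcription factor ATF4 does in the embryonic lens. It compared 4 homozygous *Atf4* null with 5 wildtype embryos, with 1 library from the lens pair of each embryo. Embryos of both genotypes were littermates from matings of heterozygotes (*Atf4* tm1Tow allele, mixed C57Bl/6/129 background), both sexes occur in each group, and no other treatment was given. The methods describe the allele as null in the germline, while a description in the supplement calls the knockout lens-conditional. The methods are followed here. With a germline null, the effects of the loss in the lens and elsewhere cannot be told apart.

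Type IV collagen chains fold in threes in the endoplasmic reticulum and are secreted as trimers, which join into a sheet outside the cell. The products of *Col4a1* and *Col4a2* form the trimer found in nearly all basement membranes. Those of *Col4a3*, *Col4a4* and *Col4a5* form another, and those of *Col4a5* and *Col4a6* form a further one. Peroxidasin, encoded by *Pxdn*, makes the sulfilimine bonds that crosslink neighbouring trimers. Perlecan, encoded by *Hspg2*, is the large heparan sulfate proteoglycan of basement membranes, and SPARC is a collagen-binding glycoprotein of the matrix. Lens epithelial cells, and fiber cells at the back of the lens, lay down the capsule throughout life, and mutations in several of these genes cause eye disease.

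Because the genes for the chains lie head to head in pairs, their promoters are shown first. In GRCm39, *Col4a1* (chr8:11248423-11362826, minus strand) and *Col4a2* (chr8:11362471-11499287, plus strand) overlap at their starts by 356 bases. *Col4a4* (chr1:82426144-82564800, minus strand) and *Col4a3* (chr1:82564642-82699780, plus strand) overlap by 159 bases, while 1281 bases part *Col4a6* (chrX:139948399-140257072, minus strand) from *Col4a5* (chrX:140258354-140472231, plus strand). The other 3 lie alone, *Hspg2* at chr4:137196079-137298231 (plus strand), *Sparc* at chr11:55285317-55314067 (minus strand) and *Pxdn* at chr12:29987607-30067658 (plus strand). RefSeq promoter windows, from 250 bases before to 50 after a start site, were at hand for 8 of the 9 genes. They follow RefSeq start sites. The windows of *Sparc* (chr11:55310857-55311156), *Col4a2* and *Pxdn* lie wholly inside the GENCODE genes. These genes have their 5′ ends at 55314067, 11362471 and 29987607, in that order. The windows of *Col4a1* and *Col4a2* are given because they share the bases chr8:11362777-11362854, and that of *Pxdn* because it had the largest fitted change among the 7 abundant genes of the set. All are written 5′ to 3′ on the strand of the gene, taken from RefSeq (GRCm38.p6) and placed in GRCm39 by exact match at chr8:11362777-11363076, chr8:11362555-11362854 and chr12:29987785-29988084. Capitals mark the CCAAT box (CCAAT) and the GC box (GGGCGG) on either strand.
Col4a1: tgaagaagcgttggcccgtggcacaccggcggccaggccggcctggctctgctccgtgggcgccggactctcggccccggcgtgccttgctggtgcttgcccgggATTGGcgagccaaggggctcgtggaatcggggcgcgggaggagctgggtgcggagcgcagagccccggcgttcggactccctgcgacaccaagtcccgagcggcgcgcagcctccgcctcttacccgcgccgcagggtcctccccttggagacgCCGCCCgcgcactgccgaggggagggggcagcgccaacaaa
Col4a2: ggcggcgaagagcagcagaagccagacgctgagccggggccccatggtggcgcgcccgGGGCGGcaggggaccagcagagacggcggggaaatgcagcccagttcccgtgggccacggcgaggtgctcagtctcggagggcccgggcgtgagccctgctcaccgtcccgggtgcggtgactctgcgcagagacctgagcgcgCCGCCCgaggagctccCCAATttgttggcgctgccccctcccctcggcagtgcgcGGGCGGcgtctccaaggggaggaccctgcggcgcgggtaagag
Pxdn: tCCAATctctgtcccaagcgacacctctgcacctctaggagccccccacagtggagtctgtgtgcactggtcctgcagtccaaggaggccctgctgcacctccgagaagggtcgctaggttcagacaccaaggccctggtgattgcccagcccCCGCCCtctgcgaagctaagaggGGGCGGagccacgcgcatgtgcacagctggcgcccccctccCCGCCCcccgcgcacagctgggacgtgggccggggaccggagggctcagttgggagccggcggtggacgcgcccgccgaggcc

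The sequence TGATGCAA, 1 form of the element that ATF4 binds with its partners, was in none of the 8 windows on either strand, and neither was the looser TGATGNAA, which includes it. Of all 32851 windows in the table, 0.895% hold TGATGCAA and 3.97% hold TGATGNAA. A CCAAT box was in 4 of the 8 windows (*Col4a1*, *Col4a2*, *Col4a5* and *Pxdn*), against 37.4% of all windows. A GC box was in 6 of the 8, all but those of *Col4a4* and *Sparc*, against 35.7% of all windows. None of the 8 holds TATAAA, which is in 13.6% of all windows. GC content ranged from 48.3% in the window of *Col4a6* to 74.0% in that of *Col4a1*, with 52.7% for *Col4a5*, 55.3% for *Sparc* and 63.3% to 73.7% for the other 4, against a median of 52.7% over all windows. These letters describe the windows only. Binding was not measured.

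The genotype labels were first set beside *Atf4* itself. *Atf4* RNA was counted 1211, 1146, 1152, 1023 and 1114 times in wildtype replicates 1 to 5, and 33, 72, 97 and 4 times in *Atf4* null replicates 1 to 4. Tested in edgeR by quasi-likelihood, with p adjusted by Benjamini-Hochberg over all genes tested, its log2 fold change was -4.55 (SE 0.47, adjusted p = 9.75e-05), as the labels require. Each library was run on 4 lanes, but the names of the count tables carry 1 lane number, and whether they hold the reads of 1 lane or of all 4 is not settled. As deposited, a library held between 7440807 and 8906996 counts on genes, so the members were counted between 13 times (*Col4a4* in *Atf4* null replicate 4) and 33189 times (*Col4a1* in wildtype replicate 1). The library of wildtype replicate 5 stood apart: its 10 skeletal muscle markers summed to 9391 CPM (counts scaled to a common library size) against 16.8 to 39.5 in the other wildtype libraries, and its 10 mesenchyme markers to 15745 CPM against 398 to 411. Every comparison is therefore given with all 9 libraries and with the 8 that remain without it. CPM values here are scaled by edgeR's TMM factors over the 9 libraries.

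All 9 genes had less RNA in the *Atf4* null lens. With 8 libraries, all 9 fell (adjusted p below 0.05 in edgeR's quasi-likelihood test), against 4.96% of the 14493 genes tested that fell and 3.37% that rose, and the CPM of the groups did not overlap for any of the 9, against 8.56% of genes tested that did not overlap in this direction. With 9 libraries, 7 fell and none rose, against 3.67% and 2.23% of the 14903 genes tested, and the groups did not overlap for 5, against 5.58%. At an unadjusted p below 0.05 the count was 9 in both comparisons. The share of all genes at this looser threshold was not worked out, so that count has no background beside it. Among genes at 100 or more mean wildtype CPM, a level at which 7 of the 9 lie and which was chosen after their values had been seen, 11.1% fell with 9 libraries and 16.6% with 8. The median log2 fold change over the 9 genes was -0.66 with 9 libraries and -0.79 with 8, against 0.00072 and 0.03 over all genes tested. The count with 9 libraries depends on single libraries: it was 3 without *Atf4* null replicate 2, and 4 without *Atf4* null replicate 3 or any 1 of wildtype replicates 1 to 4, while every fitted change of the 9 genes stayed below 0 in each of these fits.

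**Figure D1:**
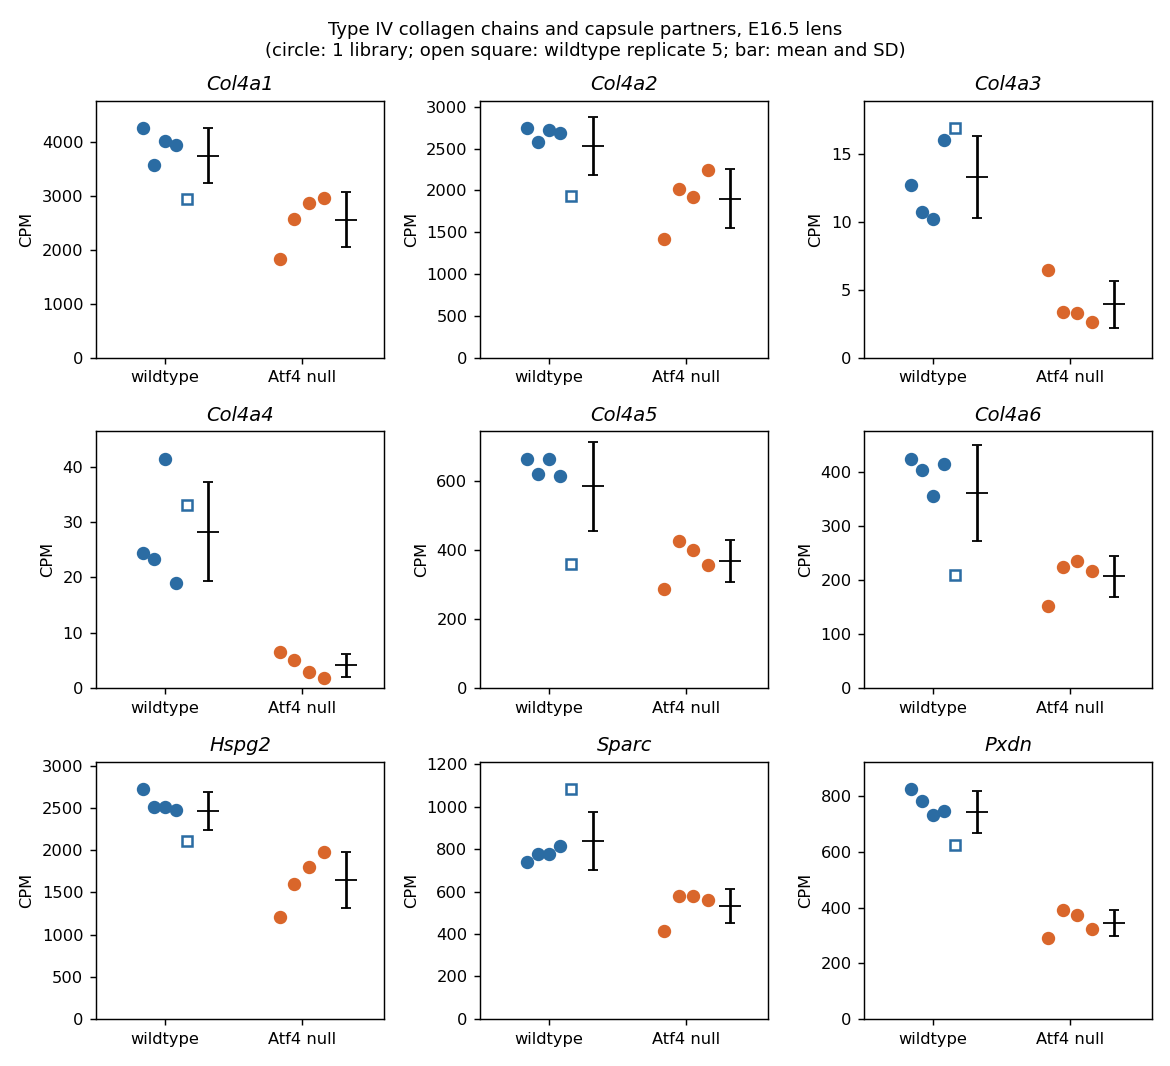
CPM of the 9 genes in each library (vertical axes, each from 0), for 5 wildtype and 4 Atf4 null libraries. Points are libraries, the open square is wildtype replicate 5, and bars give the mean and SD. Without the open square every wildtype point lies above every null point, in each of the 9 panels. The square is below the other wildtype points for 6 genes and above them for Sparc and Col4a3.

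*Col4a1* and *Col4a2*, the chains of the common trimer, carried most of the type IV collagen RNA and had the smallest fitted changes of the 6 chains. *Col4a1* stood at 4261, 3577, 4019, 3946 and 2946 CPM in wildtype replicates 1 to 5 and at 1838, 2581, 2875 and 2964 CPM in *Atf4* null replicates 1 to 4. Only wildtype replicate 5 fell within the null range, just under the highest null library. The log2 fold change was -0.55 (SE 0.16, adjusted p = 0.0566 in edgeR) with 9 libraries, so it did not pass, and -0.62 (SE 0.14, adjusted p = 0.00993) with 8. *Col4a2* stood at 2741, 2573, 2723, 2682 and 1928 CPM in the wildtype and at 1414, 2019.6, 1920.4 and 2247 CPM in the null libraries. Wildtype replicates 1 to 4 lay close together and above all null libraries, and wildtype replicate 5 lay below 2 of the 4 null libraries. The log2 fold change of *Col4a2* was -0.41 (SE 0.15, adjusted p = 0.138 in edgeR) with 9 libraries and -0.49 (SE 0.13, adjusted p = 0.0281) with 8. With 8 libraries, the call for *Col4a2* was lost with sex as a covariate (adjusted p = 0.0527 in edgeR) and without *Atf4* null replicate 2 or 3 or wildtype replicate 1, 3 or 4 (adjusted p from 0.0616 to 0.0762). The genes share their start region, and the strand setting of the counting is not given in the sources used here. Some reads there could therefore have been left uncounted or gone to the wrong member of the pair.

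*Col4a3* and *Col4a4*, partners of *Col4a5* in the trimer known from kidney and from parts of the eye, were at low levels and had the largest fitted changes. *Col4a4* stood at 24.4, 23.3, 41.4, 19.0 and 33.1 CPM in wildtype replicates 1 to 5 and at 6.58, 5.16, 2.96 and 1.89 CPM in *Atf4* null replicates 1 to 4. These are 150 to 335 counts per wildtype and 13 to 66 per null library, and the groups lay well apart. Its log2 fold change was -2.75 (SE 0.37, adjusted p = 0.000662 in edgeR), or 6.72-fold lower, with 9 libraries and -2.68 (SE 0.37, adjusted p = 0.00018) with 8. *Col4a3* stood at 12.7, 10.7, 10.3, 16.1 and 16.9 CPM in the wildtype and at 6.48, 3.36, 3.29 and 2.62 CPM in the null libraries. The groups did not overlap, although *Atf4* null replicate 1 lay nearer to the wildtype than the other null libraries did. Its log2 fold change was -1.75 (SE 0.34, adjusted p = 0.0084 in edgeR) with 9 libraries and -1.65 (SE 0.37, adjusted p = 0.0107) with 8. Without wildtype replicate 4 as well, the call for *Col4a3* with 8 libraries was lost (adjusted p = 0.0535 in edgeR). With 18 to 65 counts of *Col4a3* in a null library, the size of its change is less certain than that of the abundant chains. These genes, too, overlap at their starts.

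*Col4a5* and *Col4a6*, the pair on the X chromosome, held an intermediate place. *Col4a5* stood at 662, 619.9, 663, 613 and 359 CPM in wildtype replicates 1 to 5 and at 288, 427, 401 and 356 CPM in *Atf4* null replicates 1 to 4. Wildtype replicate 5 lay among the null libraries, and the other 4 wildtype libraries lay above them all. Its log2 fold change was -0.66 (SE 0.18, adjusted p = 0.0463 in edgeR) with 9 libraries and -0.79 (SE 0.13, adjusted p = 0.000768) with 8. *Col4a6* stood at 425, 404, 356, 415 and 209 CPM in the wildtype and at 152, 224, 235 and 217 CPM in the null libraries. Here, too, wildtype replicate 5 alone fell within the null range. The log2 fold change of *Col4a6* was -0.81 (SE 0.20, adjusted p = 0.0288 in edgeR) with 9 libraries and -0.94 (SE 0.14, adjusted p = 0.000335) with 8. With wildtype replicate 5 in the comparison, leaving out any 1 other library ended the call for *Col4a5* (adjusted p from 0.0693 to 0.116 in edgeR), and so did sex as a covariate (adjusted p = 0.0757) and scaling by library size alone (adjusted p = 0.0548). For *Col4a6* the call ended without any 1 of the other libraries save *Atf4* null replicate 4 (adjusted p from 0.056 to 0.0745 in edgeR). There were 2 female embryos among the wildtype and 1 among the null. With 8 libraries both genes passed under all 18 alternatives.

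*Pxdn*, whose product crosslinks the collagen sheet, had the largest fitted change among the abundant genes. It stood at 825, 783, 732, 749 and 623 CPM in wildtype replicates 1 to 5 and at 291, 391, 374 and 324 CPM in *Atf4* null replicates 1 to 4. The lowest wildtype library was far above the highest null library, with wildtype replicate 5 included. Its log2 fold change was -1.11 (SE 0.13, adjusted p = 0.000234 in edgeR), or 2.15-fold lower, with 9 libraries and -1.16 (SE 0.12, adjusted p = 1.15e-05) with 8. Among all genes tested it ranked 50th of 14903 by p with 9 libraries. Per 100 CPM of *Col4a1* there were 18.2 to 21.9 CPM of *Pxdn* in the wildtype and 10.9 to 15.8 in the null libraries, so the ratio of these genes did not overlap between the groups either.

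*Hspg2*, the gene for perlecan, and *Sparc* had fitted changes near those of *Col4a1* and *Col4a5*. *Hspg2* stood at 2721, 2515, 2508, 2482 and 2108 CPM in wildtype replicates 1 to 5 and at 1209, 1595, 1797 and 1984 CPM in *Atf4* null replicates 1 to 4. The groups did not overlap, with a narrow gap between wildtype replicate 5 and *Atf4* null replicate 4. Its log2 fold change was -0.58 (SE 0.14, adjusted p = 0.0288 in edgeR) with 9 libraries and -0.63 (SE 0.14, adjusted p = 0.00813) with 8. With 9 libraries the call for *Hspg2* was lost with sex as a covariate (adjusted p = 0.0527 in edgeR), and without *Atf4* null replicate 2 or 3 or any 1 of wildtype replicates 1 to 4 (adjusted p from 0.0646 to 0.101). *Sparc* stood at 738, 779, 779, 816 and 1082 CPM in the wildtype and at 415, 581, 577 and 559 CPM in the null libraries. The groups did not overlap, and wildtype replicate 5 was the highest library of all, the reverse of its place for the main chains. The log2 fold change of *Sparc* was -0.65 (SE 0.15, adjusted p = 0.0179 in edgeR) with 9 libraries and -0.54 (SE 0.12, adjusted p = 0.011) with 8. With 9 libraries its call was lost without *Atf4* null replicate 2, at an adjusted p of 0.0502 in edgeR.

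**Figure D2:**
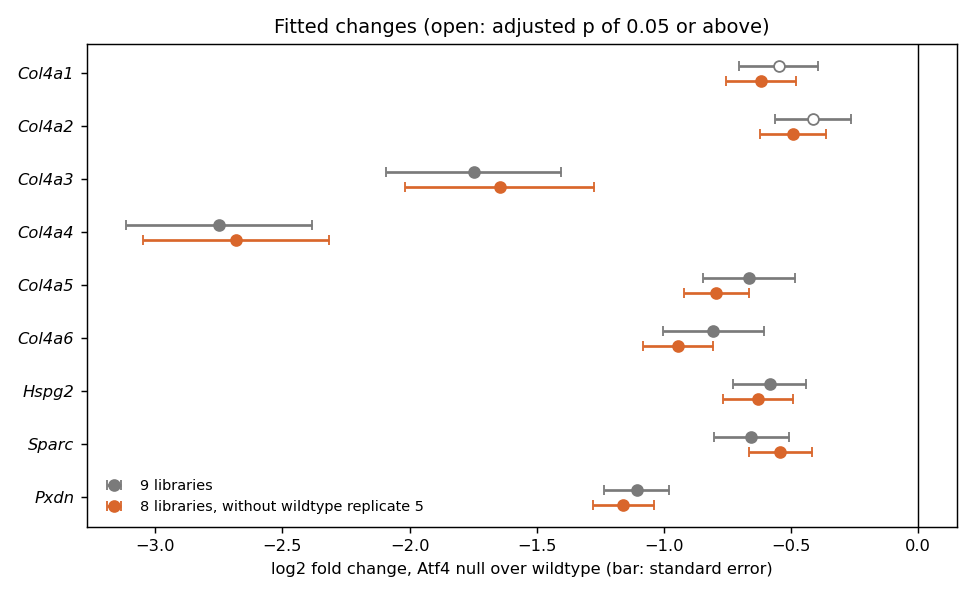
Log2 fold change of each gene, Atf4 null over wildtype, with its standard error, fitted by edgeR with 9 libraries (grey) and with 8 (orange). Open points did not pass an adjusted p of 0.05. All points lie left of 0; the open points are Col4a1 and Col4a2 with 9 libraries, and Col4a4 lies farthest left at -2.75 and -2.68.

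In an exact permutation test of each gene (two-sided, difference of mean log2 CPM), the 5 genes without overlap in 9 libraries reached p = 0.00794, the smallest that 4 against 5 libraries can give. The values for the other genes, by the same exact permutation test, were 0.0238 for *Col4a1*, 0.0317 for *Col4a2* and *Col4a5*, and 0.0397 for *Col4a6*. With 8 libraries all 9 genes reached p = 0.0286, the smallest value of an exact permutation test of 4 against 4 libraries. These p-values were not adjusted over all genes.

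Wildtype replicate 5 differed from the other wildtype libraries in both directions. Against the mean of the other wildtype libraries, it held 0.52 times as much *Col4a6*, 0.56 times *Col4a5*, 0.72 times *Col4a2*, 0.75 times *Col4a1*, 0.81 times *Pxdn* and 0.82 times *Hspg2*, and was below the range of the other 4 for each. It held 1.39 times as much *Sparc* and 1.36 times as much *Col4a3*, both above that range, and for *Col4a4* it was within it. Its summed fiber cell markers were 62131 CPM against 106712 to 114460 in the other wildtype libraries, and its lens epithelium markers 973 CPM against 1288 to 1363. The part of these transcripts in the members' values was not tested.

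Levels of different genes can be set side by side only per length, as FPKM (CPM per kilobase of exon). By mean wildtype FPKM, out of 14864 genes, *Col4a1* ranked 37th at 502 ± 68.6 (SD, n = 5) and *Col4a2* 48th at 352 ± 47.7. *Sparc* followed at 197 ± 32.5 and rank 87, and *Hspg2* at 155 ± 14.0 and rank 118. *Col4a5* (62.5 ± 13.6, rank 327), *Pxdn* (59.4 ± 6.04, rank 346) and *Col4a6* (45.4 ± 11.2, rank 474) formed a lower group, in which the wildtype ranges of neighbours overlap. *Sparc* (173 to 254 FPKM in the wildtype) and *Hspg2* (132 to 171) did not overlap. Ranks and levels rest on the summed exon length of each gene. *Col4a4* (2.47 ± 0.784) and *Col4a3* (1.34 ± 0.305) were far lower, at ranks 8462 and 10865. In the null the order of these 7 abundant genes was the same, with *Pxdn* (27.6 ± 3.68, n = 4) and *Col4a6* (26.0 ± 4.70) side by side at ranks 821 and 890.

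As a share of the summed FPKM of the 6 chains, *Col4a1* made up 52.1% ± 1.43 (SD, n = 5) in the wildtype and 50.8% ± 1.69 (n = 4) in the null. *Col4a2* made up 36.5% ± 0.742 and 39.3% ± 1.63, and *Col4a5* 6.40% ± 0.674 and 5.90% ± 0.701. The ranges of the groups overlapped for these 3 chains. *Col4a6* made up 4.64% ± 0.695 and 3.86% ± 0.248, which overlapped only through wildtype replicate 5. *Col4a4* went from 0.263% ± 0.102 to 0.0595% ± 0.042 of the sum with no overlap, and *Col4a3* went from 0.144% ± 0.0538 to 0.0647% ± 0.0449 with overlap. The sum itself was 1080.2, 958, 1038, 1023 and 733 FPKM in wildtype replicates 1 to 5 and 494, 702, 726 and 776 FPKM in *Atf4* null replicates 1 to 4. Wildtype replicate 5 again lay within the null range and the other wildtype libraries above it.

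The ratio of the summed FPKM of *Col4a1* and *Col4a2* to that of *Col4a5* and *Col4a6* was 8.50 to 10.9 in the null libraries. It was 7.16 to 7.93 in wildtype replicates 1 to 4, and 10.2 in the fifth. The groups thus overlap with all libraries and not without wildtype replicate 5. Within the pairs, the ratio of *Col4a1* to *Col4a2* (1.43 ± 0.0607 and 1.30 ± 0.0965) and that of *Col4a5* to *Col4a6* (1.39 ± 0.134 and 1.53 ± 0.117) overlapped between wildtype and null. The ratio of *Col4a3* to *Col4a4* overlapped as well, but went from 0.593 ± 0.246 in the wildtype, with *Col4a4* the higher in FPKM in every library, to 1.18 ± 0.349 in the null, with *Col4a3* the higher in 3 of 4 libraries, at 13 to 66 counts of either gene. These are descriptions, with no test of a score over the genes, and they depend on the gene length used: with the longest transcript in place of the summed exon length, *Col4a5* made up 8.08% of the sum in the wildtype and 7.47% in the null.

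The calls among marker genes are to be read beside the shares over all genes tested, of which 3.67% fell and 2.23% rose with 9 libraries, and 4.96% fell and 3.37% rose with 8. Bulk RNA cannot tell fewer cells of a type from less RNA per cell, and several tissues besides the lens make these collagens, so marker sums are given beside the values. The 8 lens epithelium markers summed to 585 to 745 CPM in the null and to 1288 to 1363 CPM in wildtype replicates 1 to 4, and 5 of the 8 fell in both comparisons, with a median log2 fold change of -1.26 with 9 libraries and -1.35 with 8. The largest part of this sum is *Pax6*, which was not called. It had 406 to 537 CPM in the null and 530 to 578 in wildtype replicates 1 to 4. Its log2 fold change was -0.06 (adjusted p = 0.89 in edgeR) with 9 libraries. The 10 fiber cell markers, of which *Lim2* was at 0 in every library, summed to 47262 to 112579 CPM in the null against 106712 to 114460 in wildtype replicates 1 to 4, and 2 of the 9 tested fell with 9 libraries and 3 with 8, at medians of -0.35 and -0.48. Why *Lim2* had no counts was not tested, and its 0 does not show that the lens lacks this RNA. *Atf4* null replicate 1 had both the lowest fiber marker sum and the lowest summed type IV collagen (494 FPKM), and *Atf4* null replicate 4 had the highest of both among the null libraries. The vessels that surround the embryonic lens have type IV collagen of their own. The 12 endothelium markers summed to 258 to 511 CPM in the null, against 445 to 603 in wildtype replicates 1 to 4 and 778 in the fifth. The 7 pericyte markers gave 197 to 341, 319 to 490 and 792 CPM in the same order. Of the endothelium markers, 2 fell with 9 libraries and 1 with 8, and of the pericyte markers 2 fell in each comparison and 1 rose with 8. All 12 endothelium markers had fitted changes below 0 in both comparisons, with a median log2 fold change of -0.68 with 9 libraries and -0.58 with 8, beside -0.66 and -0.79 for the members. For the pericyte markers the medians were -0.59 and -0.17. *Atf4* null replicate 4, with the highest type IV collagen among the null libraries (776 FPKM), had the lowest sums of endothelium (258 CPM), pericyte (197 CPM) and lens epithelium markers (585 CPM).

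Markers of other tissues took various directions. The 10 neural retina markers summed to 312 to 798 CPM in the null, against 183 to 287 in wildtype replicates 1 to 4 and 233 in the fifth, and 6 of them rose with 9 libraries and 7 with 8, against 2.23% and 3.37% of all genes that rose. Mesenchyme markers summed to 412 to 771 CPM in the null against 398 to 411 in wildtype replicates 1 to 4. This sum holds opposite changes: *Pdgfra* was at 6.70 to 26.2 CPM in the null against 180 to 227 in wildtype replicates 1 to 4, and *Col1a1* at 93.6 to 146 against 8.99 to 29.1. The list's median log2 fold change was 2.52 with 8 libraries, and -2.28 with wildtype replicate 5 included. Of the 9 mesenchyme markers tested with 8 libraries, 6 rose and 1 fell, and with 9 libraries 1 of 10 fell, each time *Pdgfra*, which is also on the lens epithelium list. The 10 muscle markers summed to 27.7 to 121 CPM in the null. Only 6 of them were tested with 9 libraries and 5 with 8, and none of these was called. The 9 macrophage markers were at 95.4 to 107 CPM in the null, 91.2 to 107 in wildtype replicates 1 to 4 and 100.4 in the fifth, with none called. The 7 blood cell markers were at 180 to 245, 224 to 737 and 472 CPM in the same order, with 1 lower call among the 6 tested with 9 libraries and 2 with 8, against 3.67% and 4.96% of all genes. No defining marker other than *Lim2* was at 0 in all libraries. The part of cell composition in the members' changes was not tested.

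**Figure D3:**
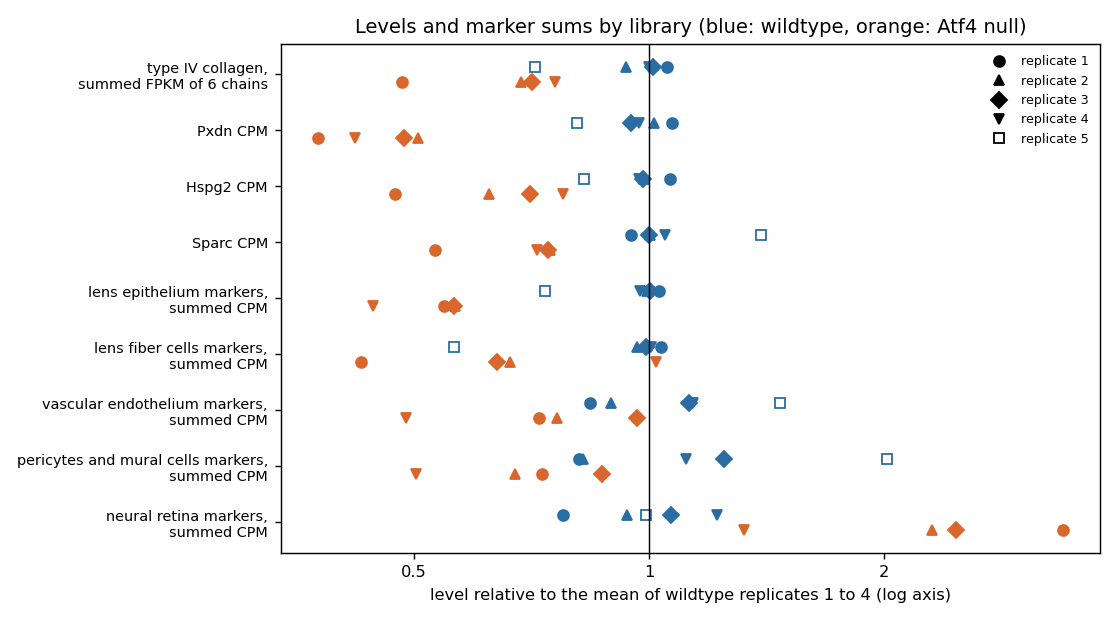
Level of each quantity in each library relative to the mean of wildtype replicates 1 to 4 (horizontal log axis), with wildtype in blue and Atf4 null in orange. Marker shapes give the replicate number, and the open square is wildtype replicate 5. The null libraries lie below 1 for collagen, Pxdn, Hspg2, Sparc, lens epithelium, endothelium and pericytes, and above 1 for neural retina. For fiber cell markers, null replicate 4 lies at 1.02.

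Of 19 genes for enzymes and chaperones that modify and fold collagen chains, all tested, 6 fell with 9 libraries and 4 with 8, and none rose. Of all genes tested, 3.67% fell with 9 libraries and 4.96% with 8, and among those at 100 or more mean wildtype CPM 11.1% and 16.6% fell. With 9 libraries the count was 1 without *Atf4* null replicate 2 or wildtype replicate 2, near the share over all genes, and 2 or 3 without *Atf4* null replicate 1 or 3 or wildtype replicate 1, 3 or 4, and with 8 it was 2 without *Atf4* null replicate 2 or wildtype replicate 2 or 4. The median log2 fold change was -0.47 with 9 libraries and -0.31 with 8. *P4ha1*, a catalytic subunit of the prolyl 4-hydroxylase that stabilises the triple helix, had 325 to 468 CPM in the wildtype and 158 to 237 in the null, with a log2 fold change of -1.02 (SE 0.15, adjusted p = 0.00157 in edgeR) with 9 libraries and -1.09 with 8. *P3h2*, a prolyl 3-hydroxylase known to act on type IV collagen, fell by 1.19 on the log2 scale (adjusted p = 0.0354 in edgeR), and fell by 1.36 (adjusted p = 0.0013) with 8 libraries. Its 48.7 CPM in wildtype replicate 5 lay within the null range of 26.4 to 67.7. *Plod1*, a lysyl hydroxylase, fell by 0.65 (adjusted p = 0.0326 in edgeR) and *Ppib*, a prolyl isomerase of the endoplasmic reticulum, fell by 0.47 (adjusted p = 0.0287). *Mia3*, which helps load collagen into transport carriers, fell by 0.40 (adjusted p = 0.0481 in edgeR) and *P4ha3*, another prolyl 4-hydroxylase subunit, fell by 2.39 (adjusted p = 0.048) with 9 libraries. Neither passed with 8 (adjusted p = 0.0533 for *Mia3* and 0.0565 for *P4ha3* in edgeR). *Serpinh1*, the collagen chaperone HSP47, did not pass, at a log2 fold change of -0.31 with 9 libraries and -0.14 with 8.

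Among 22 other basement membrane genes, of which 21 were tested, 5 fell and none rose in each comparison, against 3.67% and 4.96% of all genes that fell. At 100 or more mean wildtype CPM, 11.1% of genes fell with 9 libraries and 16.6% with 8. The count of this list with 8 libraries was 8 without *Atf4* null replicate 3. The median log2 fold change was -0.60 with 9 libraries and -0.30 with 8. They include genes for 4 laminin chains. *Lama1* had 577, 458, 419, 444 and 253 CPM in the wildtype and 139, 199, 188 and 196 CPM in the null, with no overlap, and a log2 fold change of -1.25 (SE 0.20, adjusted p = 0.00248 in edgeR), and of -1.39 with 8 libraries. *Lama3* had 17.5 to 37.0 CPM in the wildtype and 3.35 to 4.29 in the null, a log2 fold change of -2.74 (SE 0.26, adjusted p = 5.99e-05 in edgeR). *Lamb1* fell by 0.67 (adjusted p = 0.0065 in edgeR) and *Lamc1* fell by 0.64 (adjusted p = 0.00585). *Nid1*, the gene for nidogen, which bridges the laminin and collagen networks, had 1582 to 2351 CPM in the wildtype and 882 to 1539 in the null, with a log2 fold change of -0.69 (SE 0.16, adjusted p = 0.0242 in edgeR). *Agrn* and *Col18a1*, for the other heparan sulfate proteoglycans of basement membranes, did not pass, with log2 fold changes of 0.46 and 0.23 with 9 libraries.

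Of 14 genes for integrin chains and other matrix receptors, most of which bind collagen or laminin, all tested, 2 fell with 9 libraries, and 4 fell and 1 rose with 8. Over all genes 3.67% fell with 9 libraries, and 4.96% fell and 3.37% rose with 8. At 100 or more mean wildtype CPM, 11.1% of genes fell with 9 libraries and 16.6% with 8. Without wildtype replicate 1 as well, 3 of the receptor genes were called. The median log2 fold change was -0.38 with 9 libraries and -0.09 with 8. *Itga6*, a laminin-binding integrin chain, fell by 0.94 (adjusted p = 0.00192 in edgeR) and *Itgb5* fell by 0.75 (adjusted p = 0.0046). The integrin of *Itgb5* with *Itgav* is a receptor for vitronectin, not for collagen or laminin. With 8 libraries *Itga2*, a collagen-binding chain, fell by 0.78 (adjusted p = 0.0266 in edgeR) and *Itga3*, a laminin-binding one, fell by 0.60 (adjusted p = 0.0201). *Itgb4*, the partner of *Itga6* in hemidesmosomes, rose with 8 libraries (adjusted p = 0.00945 in edgeR), but from very low levels, at 2.41 to 5.04 CPM in the null against 0 to 0.494 in wildtype replicates 1 to 4, and 6.75 in the fifth. *Itgb1*, the common partner of the collagen-binding integrins, did not pass, with a log2 fold change of -0.18 (adjusted p = 0.447 in edgeR).

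In a list of 22 genes for enzymes that cut or crosslink matrix and for inhibitors of matrix proteases (*Timp1* to *Timp4*), of which 18 were tested, 2 fell with 9 libraries, and 2 fell and 3 rose with 8. The shares over all genes were again 3.67% lower with 9 libraries, and 4.96% lower and 3.37% higher with 8, and among genes at 100 or more mean wildtype CPM 11.1% and 16.6% were lower. Without wildtype replicate 3 as well, 3 were called. The median log2 fold change was -0.45 with 9 libraries and 0.16 with 8. *Loxl1*, a lysyl oxidase relative, fell by 1.44 (adjusted p = 2.96e-05 in edgeR) from 118 to 152 CPM in the wildtype to 43.3 to 57.2 in the null. *Adamts4*, a protease of matrix proteoglycans, fell by 1.23 (adjusted p = 0.0124 in edgeR). With 8 libraries *Mmp2*, a gelatinase that degrades type IV collagen, rose by 1.06 (adjusted p = 0.00502 in edgeR), *Mmp14*, which activates it, by 0.69 (adjusted p = 0.048) and *Adamts5* by 1.79 (adjusted p = 0.0097). *Mmp2* had 32.6 to 59.3 CPM in the null and 16.7 to 25.4 in wildtype replicates 1 to 4, but 255 in the fifth, and with 9 libraries its log2 fold change was -0.56 (adjusted p = 0.737 in edgeR). Nor did *Mmp14* (0.03, adjusted p = 0.98 in edgeR) and *Adamts5* (0.15, adjusted p = 0.94) pass with 9 libraries. Wildtype replicate 5 had 193 CPM of *Mmp14* and 31.2 CPM of *Adamts5*. As given above, 6 mesenchyme markers rose with 8 libraries as well, and their part in these rises was not tested.

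Of the 7 relatives of *Sparc*, all tested, 3 fell and none rose in each comparison, against 3.67% and 4.96% of all genes that fell, with a median log2 fold change of -0.99 with 9 libraries and -0.75 with 8. At 100 or more mean wildtype CPM, 11.1% of genes fell with 9 libraries and 16.6% with 8. *Spock1* and *Spock2* encode testican proteoglycans. *Spock1* fell by 1.55 (adjusted p = 0.00246 in edgeR) and *Spock2* fell by 0.71 (adjusted p = 0.0211). *Fstl1* fell by 0.99 (adjusted p = 0.00937 in edgeR). It had 274 to 356 CPM in the null, 513.8 to 555 in wildtype replicates 1 to 4 and 1012 in the fifth, so that wildtype replicate 5 was the highest library for it, as for *Sparc*.

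**Figure D4:**
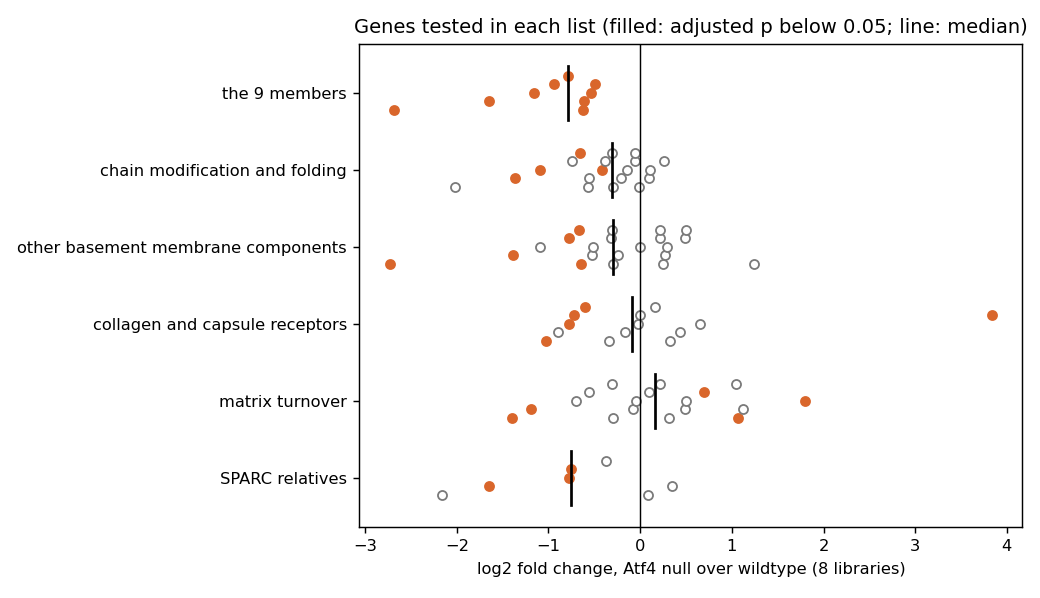
Log2 fold changes (Atf4 null over wildtype, 8 libraries) of the 9 genes and of the tested genes in the 5 other lists. Each point is a gene, filled where the adjusted p is below 0.05, and the line is the median of the list. All 9 members are filled and left of 0; filled points right of 0 occur among receptors (1) and matrix turnover (3).

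The genes closest to each member in pattern were found by the root mean square difference of mean-centred log2 CPM over the 9 libraries, among 14902 other genes. *Col4a1* and *Hspg2* were close to each other, at a difference of 0.0734, where *Col4a1* was the nearest gene to *Hspg2*, and *Hspg2* came after *Oaf* (0.0674) for *Col4a1*. *Col4a2* was at rank 6 from *Col4a1* (0.101). *Col4a5* was at rank 3 from *Col4a6*, and *Col4a6* at rank 5 from *Col4a5* (0.13), and nearest to *Col4a5* was *Cdh2* (0.0855), the gene for N-cadherin. Nearest to *Col4a2* was *Fn3krp* (0.0639), to *Col4a6* *Tmem170b* (0.125), to *Sparc* *Pxn* (0.0985) and to *Pxdn* *Tkt* (0.111). The low *Col4a3* and *Col4a4* had no such close gene, with *Daam2* at 0.324 and *Clstn2* at 0.435. Next in order were *Atp5f1b* after *Hspg2* for *Col4a1*, *Cox4i1* and *Ftl1* for *Col4a2*, *Hlf* and *Csdc2* for *Col4a3*, *Krt40* and *Shank1* for *Col4a4*, *Gapdh* and *Ankrd46* for *Col4a5*, *Aldh1a1* before *Col4a5* for *Col4a6*, *Aldh7a1* and *Atp5f1b* for *Hspg2*, *N6amt1* and *Maged2* for *Sparc*, and *Ablim1* and *Tpra1* for *Pxdn*. The pattern over 9 libraries includes the genotype and wildtype replicate 5, which all these genes share, and no p is given.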

How the data were processed

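Lens RNA of 9 embryos was measured in 1 library each. The authors used Trim Galore for adapters, HISAT2 to take out reads of the RN45S ribosomal sequence, and HTSeq to count the remaining reads over Ensembl genes of GRCm39. The deposited files hold these counts with no normalization. The 5 summary entries, which name no gene, held 44.6% to 47.7% of a library and were left out. Reads that match several genes are not counted. Gene counts were 8409779 to 8906996 per wildtype and 7440807 to 8696699 per *Atf4* null library. The labels and the methods name different RNA kits. The title of each wildtype sample names another wildtype library than its counts do, so the wildtype replicate numbers are uncertain and the genotype is not.

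Identifiers were joined to GENCODE vM39 (GRCm39) for symbols, positions and exon lengths. The test was that of edgeR 4.0.16 in R 4.3.3 (filterByExpr, TMM factors, estimateDisp, glmQLFit and glmQLFTest, no covariate), with Benjamini-Hochberg adjustment over all genes tested and a threshold of 0.05. Log2 CPM for patterns and permutation tests used a prior count of 2. No library repeated another (36 pairs compared, with a chi-square per degree of freedom of at least 7.70). The procedure was tested on simulated data with 50 genes changed at each size. Of 1.5-fold changes, 10% passed with 9 libraries and 6% with 8, and of 2-fold changes 36% and 78%. Among the calls, 1.68% were false with 9 libraries and 5.48% with 8. A gene that did not pass is therefore not shown to be unchanged.

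The members and all lists (chain modification and folding, other basement membrane components, collagen and capsule receptors, matrix turnover, SPARC relatives, and the markers) were chosen with earlier results of these data known. The genes named are the members, *Atf4*, at most 6 called genes of each list, the 3 genes nearest in pattern, and markers beside results. *Serpinh1*, *Agrn*, *Col18a1* and *Itgb1* were added after their values were seen. Alternatives were DESeq2 1.42.0, edgeR's exactTest, a robust fit, library size or DESeq2's size factors for scaling, TMM factors without crystallin genes, no filter, 10 counts in every library, the longest transcript as gene length for FPKM, a covariate for sex, a block for the replicate number, and each library left out in turn.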

Additional observations from a re-analysis of the deposited data

Results flagged for a closer look

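Libraries far from the rest of their group were looked for in 58 groups of values (Dixon's test at 95%), and 12 stood out, where chance gives about 1 in 20. Wildtype replicate 5 accounts for 8 of them. Its *Col4a2* (1928 CPM) and *Col4a5* (359 CPM) lay far below the other wildtype libraries, its *Sparc* (1082 CPM) far above, and its ratio of *Col4a1* and *Col4a2* to *Col4a5* and *Col4a6* was 10.2. Its mesenchyme markers summed to 15745 CPM and its muscle markers to 9391 CPM, both far above, while its lens epithelium markers (973 CPM) and fiber cell markers (62131 CPM) were far below.

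The other 4 are in *Atf4* null libraries. Replicate 1 was far below the others in *Sparc* (415 CPM) and far above them in the share of *Col4a3* among the chains (0.131%). Replicate 3 was far below in the share of *Col4a2* (36.9%), and replicate 4 in the lens epithelium markers (585 CPM).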

How the results depend on the processing

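Every fitted change of the 9 members stayed below 0 under the 19 alternatives with 9 libraries and the 18 with 8, which give 171 and 162 values. With 9 libraries 25 of them lost the call and 10 gained it, and with 8 libraries 7 lost it. With 9 libraries, *Col4a3*, *Col4a4* and *Pxdn* passed under all 19 alternatives, *Sparc* under 18, *Col4a6* and *Hspg2* under 12, *Col4a5* under 9, *Col4a1* under 8 (log2 fold change -0.64 to -0.41, adjusted p 0.00574 to 0.139) and *Col4a2* under 2 (-0.52 to -0.29, adjusted p 0.0281 to 0.256). With 8 libraries *Col4a2* passed under 12 of 18 (adjusted p 0.000646 to 0.0762), *Col4a3* under 17 (adjusted p 0.000416 to 0.0535) and the others under all 18. Scaling by library size alone moved the median of all genes from 0.00072 to 0.12 with 9 libraries and from 0.03 to 0.18 with 8, where the calls were 439 lower of 1229 (9 libraries, against 547 of 880) and 518 lower of 1657 (8 libraries, against 719 of 1207). The members fell against that shift, with 7 and 9 called. With 9 libraries DESeq2 called 1397 genes in place of 880, and 4 receptors. The folding list had 2 calls with library size alone and matrix turnover had 4 without the filter. With 8 libraries the folding list had 7 calls by DESeq2 and by exactTest and 2 with library size alone, and the other basement membrane genes had 9 without the filter.

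Leaving out each library in turn with 9 libraries gave 527 to 1207 genes called, 3 to 9 members, 1 to 4 genes of the folding list, 2 to 5 receptors and 2 to 5 of matrix turnover. The 9 members, the 5 receptors and the 5 turnover genes came without wildtype replicate 5. With 8 libraries the ranges were 795 (without wildtype replicate 1) to 1820.0 (without *Atf4* null replicate 4) genes, 7 to 9 members, 2 to 6 of the folding list, 5 to 8 other basement membrane genes (8 without *Atf4* null replicate 3), 3 to 6 receptors and 3 to 6 of matrix turnover. The causes were not tested.

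The replicate numbers do not pair the libraries: the correlations of same-numbered libraries were -0.344, -0.05, 0.0028 and 0.09 with 9 libraries, and 0 of 4 null libraries were closest to their own number. With the number as a replicate block, 9 members were called with 9 libraries, 2 genes of the folding list and 4 of matrix turnover, where wildtype replicate 5 is alone in its block and adds nothing. With 8 libraries the block gave 9 members, 2 of the folding list and 3 receptors. With the longest transcript as gene length, the share of *Col4a2* was 34.5% (wildtype) and 37.2% (null), that of *Col4a5* 8.08% and 7.47%, and that of *Col4a6* in the null 4.12%. The ratio of *Col4a1* to *Col4a2* was then 1.51 in the wildtype, that of *Col4a5* to *Col4a6* 1.65 and 1.81, and that of the first pair to the second 6.74 and 7.68, against 8.13 and 9.31 with summed exon length. The other shares and ratios moved by less than the spread between libraries. Counts of 13 to 66 limit the precision of *Col4a3* and *Col4a4* in the null.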
